A study of Mus musculus with 16 samples.

Results

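The odorant receptor genes numbered Olfr987 to Olfr1140 form a stretch of a large receptor cluster on mouse chromosome 2, and their mRNA was compared between reporter-positive and reporter-negative cells of the olfactory mucosa. Members were the probe sets whose identifier places them on chromosome 2 and whose symbol is Olfr with a number in that range, pseudogenes left out. There were 104 members, each with 1 probe set, among 19572 tested probe sets and 1080 odorant receptors. All mice carried the S100a5-tauGFP reporter, in which green fluorescent protein (GFP) stands under the control of S100a5, a calcium-binding protein gene that olfactory sensory neurons express with activity. The 24 mice of both sexes were 7 to 12 weeks old and spent 40 h in filtered air, with pulses of 10 s every 20 min from hour 26 on. The 4 groups were GFP+ and GFP- cells after citrus accord at 100%, a perfumery blend, and GFP+ and GFP- cells after vehicle, which was filtered air. Each group had 4 arrays, and each array held the sorted cells of 3 pooled mice. The gate is defined by the reporter alone, so GFP- cells include neurons without S100a5 reporter signal as well as other mucosal cells. Mice without the reporter were not analysed here. GFP+ and GFP- arrays of the same number and stimulus were taken as cells of the same 3 mice, because 24 mice make 8 such pools.

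Odorant receptors are G protein-coupled receptors in the cilia of olfactory sensory neurons. A mature neuron expresses 1 allele of 1 receptor gene, so the mRNA level of a receptor in a bulk sample follows the number of neurons that chose it and the receptor mRNA in each of them. In bulk samples fewer neurons of a type and less receptor mRNA per neuron cannot be told apart. The assay asks which receptor mRNAs are over-represented in neurons that have turned on the activity-dependent S100a5 reporter, with and without the odorant. Receptor genes are grouped into MOR families by protein similarity. The family numbers used here are synonyms in the RefSeq gene table (assembly GRCm38.p6), which gave 97 members 1 family number and 7 members numbers that disagreed. The 97 fell into 29 families.

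Sequence upstream of the members was read from RefSeq windows on GRCm38.p6 that reach from 250 bases before to 50 bases after the annotated start of a gene. Windows were given for 79 of the 104 members, and 55 of these have the start codon at the annotated start, so that they show sequence before the coding part rather than a promoter. Windows were chosen for members whose gene model begins before the coding part, spans over 4000 bases, and whose mRNA differed between GFP+ and GFP- cells after both stimuli. Among the 6 that met this, Olfr1093 and Olfr1030 are shown because each holds 1 of the motif cores searched and they lie on opposite sides of the gate. Olfr1080 and Olfr1082 are shown as near copies that lie on the same side. The window of Olfr1093 is at chr2:86782295-86782594 (+ strand), that of Olfr1030 at chr2:85979062-85979361 (+ strand), that of Olfr1080 at chr2:86558089-86558388 (- strand) and that of Olfr1082 at chr2:86598760-86599059 (- strand). All are printed 5′ to 3′ on the strand of the gene, with capitals for a match to either core.
Olfr1093: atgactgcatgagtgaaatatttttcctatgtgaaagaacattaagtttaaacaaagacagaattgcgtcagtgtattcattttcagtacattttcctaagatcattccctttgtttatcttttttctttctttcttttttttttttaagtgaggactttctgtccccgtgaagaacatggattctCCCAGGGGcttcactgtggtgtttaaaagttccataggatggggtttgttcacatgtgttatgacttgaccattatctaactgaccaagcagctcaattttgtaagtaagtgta
Olfr1030: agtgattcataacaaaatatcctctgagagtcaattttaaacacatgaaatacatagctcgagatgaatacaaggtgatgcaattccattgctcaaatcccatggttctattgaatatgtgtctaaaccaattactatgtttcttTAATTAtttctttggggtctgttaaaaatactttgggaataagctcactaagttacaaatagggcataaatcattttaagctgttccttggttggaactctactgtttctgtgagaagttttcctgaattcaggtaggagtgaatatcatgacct
Olfr1080: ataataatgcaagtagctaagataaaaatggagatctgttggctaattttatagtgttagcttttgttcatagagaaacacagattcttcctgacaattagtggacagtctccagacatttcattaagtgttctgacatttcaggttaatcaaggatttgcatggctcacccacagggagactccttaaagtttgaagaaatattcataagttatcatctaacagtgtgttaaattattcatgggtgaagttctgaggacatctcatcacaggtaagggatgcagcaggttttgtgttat
Olfr1082: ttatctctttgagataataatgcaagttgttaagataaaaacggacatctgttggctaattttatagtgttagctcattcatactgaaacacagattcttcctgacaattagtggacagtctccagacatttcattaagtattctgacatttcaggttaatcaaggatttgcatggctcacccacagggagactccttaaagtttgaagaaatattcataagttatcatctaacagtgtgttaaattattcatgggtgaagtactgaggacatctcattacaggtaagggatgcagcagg
The cores were CCCNNGGG, the centre of the site bound by EBF (Olf1) factors, and TAATTA, a homeodomain core such as LHX2 binds. Both read the same on the 2 strands and they cannot overlap each other. The match CCCAGGGG in the Olfr1093 window begins at position -64 from the annotated start, and the TAATTA in the Olfr1030 window at position -105. CCCNNGGG was found in 2 of 79 member windows (2.53%), in 3.07% of 944 windows of all odorant receptors and in 13.7% of 32851 windows of all genes. TAATTA was found in 14 member windows (17.7%), in 18.6% of receptor windows and in 5.29% of all windows. Median GC content was 31.3% in member windows, 35% in receptor windows and 52.7% in all windows. The start codon was at the annotated start in 55 member windows, 685 receptor windows and 1915 of all windows, so the last set is unlike the others. In the 24 member windows whose gene model begins before the coding part, CCCNNGGG was found in 2 (8.33%) and TAATTA in 5 (20.8%). The windows of Olfr1080 and Olfr1082 were identical at 88.2% of aligned positions, against 44.7% to 50.6% for the other pairs of the 6 windows. Among members called after both stimuli, TAATTA was in 5 of 41 windows of higher members (12.2%) and 1 of 6 of lower ones (16.7%). CCCNNGGG was in 2 of the 41 and 0 of the 6. A match is a description of the letters, and no binding was measured.

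The arrays gave log2 signals. The background level was set per array as the 95th percentile of the negative-control probes. Signals below it were treated as bounds in the folds written "at least", while the fit used every signal as deposited. The background level lay between 8.75 and 9.71. The median of the members' mean signals was 7.49, and 4 members were above background on all 16 arrays, 55 on some arrays and 45 on none. These counts and the folds written "at least" hold for the 95th percentile alone. Far fewer members passed the 99th percentile, as given below. Per array, 31 to 44 members were above background in citrus GFP+ cells, against 18 to 23 in citrus GFP- cells. In vehicle, 23 to 37 were above background in GFP+ cells, against 15 to 20 in GFP- cells. S100a5 itself checked the gate. It averaged 17.43 ± 0.10 in citrus GFP+ cells, against 15.55 ± 0.10 in citrus GFP- cells (SD, n = 4 each). In vehicle it averaged 16.86 ± 0.16 in GFP+ cells, against 14.94 ± 0.13 in GFP- cells (SD, n = 4 each). Omp, the marker of mature olfactory sensory neurons, was between 18.8 and 19.4 on every array of both gates. The GFP+ arrays numbered 3 stood apart from the other GFP+ arrays for members that were lower in GFP+ cells, and values without pool 3 are given for several of them.

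Other cell types moved with the gate. Of 14 measured myeloid and lymphoid markers, 14 were lower in GFP+ cells in each stimulus, and their mean log2 signal was 5.33 to 5.79 in citrus GFP+ cells, against 11.4 to 13.3 in citrus GFP- cells. In vehicle that mean was 5.18 to 5.95 in GFP+ cells, against 12.2 to 13.2 in GFP- cells. Of 12 immature neuron markers 7 were lower in GFP+ cells in each stimulus, and 1 was higher in vehicle and 0 in citrus. Their mean was 11.2 to 11.4 in citrus GFP+ cells, against 12.4 to 12.8 in citrus GFP- cells, and 11.1 to 11.4 in vehicle GFP+ cells, against 12.4 to 12.7 in vehicle GFP- cells. Among them Gng8, a G protein subunit of immature neurons, differed by -4.57 in citrus and -4.04 in vehicle, and Gap43, a protein of growing axons, by -2.5 and -2.55. All 6 measured basal and cycling cell markers were lower in GFP+ cells in both stimuli. Of 12 microvillous cell markers 12 were lower in citrus and 11 in vehicle, and of 10 sustentacular markers 4 were lower in citrus and 2 in vehicle. Respiratory ciliated cell markers were higher for 2 of 7 in citrus and 4 of 7 in vehicle, and mature neuron markers for 6 of 15 and 4 of 15. By their group means, 5 of the 6 basal and cycling markers, Cdk1 and Neurog1 among them, and 8 of the 12 microvillous markers, Chat and Il25 among them, were below background in all 4 groups. Cd79b, Nhlh2, Notch2, Dnah5 and Hydin, called in other lists, were also below background in all 4 groups. Rsph1, called in vehicle, averaged 8.93 in vehicle GFP+ cells, where the background level was 8.90 to 9.71, and was below background in the other groups. Gng8 and Gap43 were below it in GFP+ cells, so the sizes of their differences are uncertain. The myeloid and lymphoid mean was below background in GFP+ cells. Over all probe sets, 10.8% were lower in citrus and 9.97% in vehicle, and 7.44% and 9.05% were higher. The part of these cell types in the receptor differences was not tested.

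More members were higher than lower in GFP+ cells, and the lower ones differed by more. After vehicle, 55 of 104 members were higher in GFP+ cells and 12 were lower (limma, Benjamini-Hochberg adjusted p under 0.05 over all probe sets), where 9.05% of all probe sets were higher and 9.97% lower. The median difference over the members was 1.06 log2 units, against 0.11 over all probe sets. After citrus, 51 were higher and 16 lower, where 7.44% of all probe sets were higher and 10.8% lower, and the median was 1.20, against 0.13 over all probe sets. Odorant receptors outside the block shared this tendency, with 37.4% higher and 21.4% lower of 976 in vehicle and a median of 0.51, beside 52.9% higher and 11.5% lower among the members. In citrus the shares were 49.0% higher and 15.4% lower among the members, beside 41.9% and 20.1% of the other receptors, whose median was 0.68. The next stretch of the same chromosome, Olfr1141 to Olfr1318, had 45 higher and 35 lower of 136 in vehicle and 50 higher and 29 lower in citrus. Differences between these sets of receptors were described, with no test.

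The sizes were uneven in the 2 directions. Members that were higher after vehicle differed by 0.87 to 4.25 log2 units (median 2.54), while those that were lower differed by -2.23 to -6.62 (median -4.02). After citrus the higher members spanned 0.80 to 5.20 (median 2.55) and the lower ones -1.09 to -6.14 (median -3.0). Of the called members, 26 in vehicle and 22 in citrus were not above the background level on any array even in the gate where they were brighter, so their levels are uncertain although their arrays differ. Scaling mattered for the balance: with the arrays centred on the median of all odorant receptors, which moved the median of all probe sets to -0.36 in vehicle and -0.62 in citrus, 46 members were higher and 18 lower in vehicle, and 40 higher and 24 lower in citrus.

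The gate differences were close to each other after the 2 stimuli. Mice given citrus and mice given vehicle were separate animals on separate arrays, and 50 members were higher and 12 lower in GFP+ cells after both, where 4.27% of all probe sets were higher and 8.57% lower after both. The 50 are 90.9% of the higher calls in vehicle and 98.0% of those in citrus. The 12 are 100% of the lower calls in vehicle and 75% of those in citrus. In 103 of 104 members the difference had the same sign after both stimuli, against 77.7% of all probe sets and 91.6% of the other receptors. The exception was Olfr1116, at 0.81 in citrus and -0.21 in vehicle. Across the 104 members the differences in citrus and vehicle had a Pearson correlation of 0.97 and a Spearman correlation of 0.96, given as a description, since members share arrays.

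**Figure D1:**
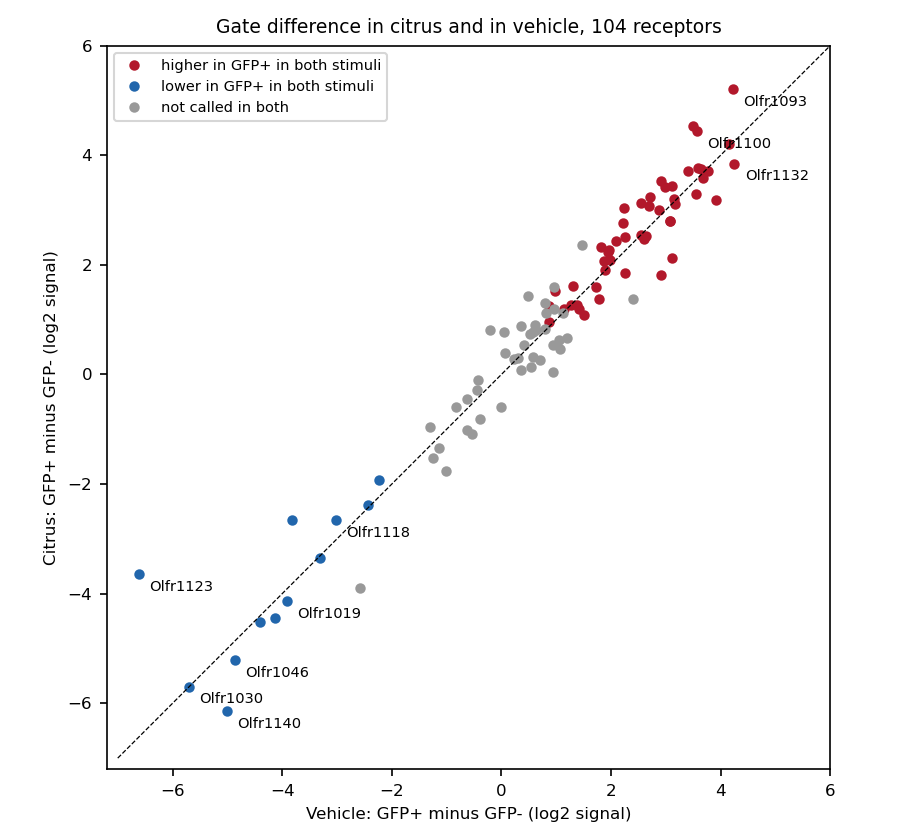
GFP+ minus GFP- difference of the 104 receptors (log2 signal) after vehicle on the x axis and after citrus on the y axis, with 1 point per receptor, colours for those called in both stimuli and a dashed line of equal values. The correlation of the points is 0.97, and Olfr1123 lies farthest from it, at -6.62 in vehicle and -3.64 in citrus.

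Olfr1093, a member of family MOR179, had the largest positive difference in citrus. Its log2 signals were 9.15, 9.90, 7.47 and 9.78 in citrus GFP+ cells, against 3.84, 4.47, 2.93 and 4.26 in citrus GFP- cells, and 9.03, 9.25, 8.41 and 9.13 in vehicle GFP+ cells, against 5.51, 4.38, 4.69 and 4.36 in vehicle GFP- cells. All GFP+ arrays were above all GFP- arrays, and no GFP- array passed the background level. The difference was 5.20 ± 0.45 in citrus and 4.22 ± 0.45 in vehicle (± SE of the limma fit, adjusted p = 1.2e-07 and 1.8e-06). Because the GFP- level is only bounded by the background, the measured excess in citrus is at least 1.09-fold.

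Olfr1037 stood further above background. It had 12.32, 10.16, 11.72 and 11.62 in citrus GFP+ cells, against 7.83, 6.65, 7.12 and 7.37 in citrus GFP- cells, and 11.19, 11.08, 11.33 and 10.01 in vehicle GFP+ cells, against 6.77, 6.88, 7.36 and 6.05 in vehicle GFP- cells. Every GFP+ array was above background and every GFP- array below it. The difference was 4.21 ± 0.41 in citrus and 4.14 ± 0.41 in vehicle (limma adjusted p = 4.7e-07 and 7.3e-07), and the bound was at least 5.69-fold in citrus and at least 3.09-fold in vehicle.

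Olfr1132 (MOR177) had the largest positive difference in vehicle, at 4.25 ± 0.33 (limma adjusted p = 3.6e-08), and 3.84 ± 0.33 in citrus. Its signals of 7.48 to 8.28 in citrus GFP+ cells, against 3.22 to 4.76 in citrus GFP- cells, and of 7.51 to 8.72 in vehicle GFP+ cells, against 3.12 to 4.2 in vehicle GFP- cells, were all below background. The gates did not overlap, but no fold is given for it. Olfr994, Olfr1099, Olfr1100, Olfr1102 and Olfr1104 were above background on every GFP+ array and on no GFP- array, with bounds of at least 2.46-fold to 4.77-fold in citrus and at least 1.87-fold to 4.18-fold in vehicle. Their fitted differences ran from 3.19 for Olfr994 to 4.54 for Olfr1099 in citrus, and from 3.49 for Olfr1099 to 3.91 for Olfr994 in vehicle. Olfr1012, Olfr1051, Olfr1079 and Olfr1111, the other members with the largest positive differences, lay between 3.29 and 3.72 in citrus and between 3.40 and 3.76 in vehicle. Among these, Olfr1051 was above background on 1 of 4 GFP+ arrays in citrus and 0 in vehicle, so its sizes are uncertain. Olfr1079 was above it on 4 and 1, and Olfr1012 on 4 and 3.

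Olfr1123 (MOR264) had the largest negative difference in vehicle. It had 8.47, 8.13, 10.76 and 7.94 in citrus GFP+ cells, against 12.44, 12.95, 12.05 and 12.43 in citrus GFP- cells, and 4.29, 7.92, 5.15 and 6.46 in vehicle GFP+ cells, against 12.35, 12.90, 12.39 and 12.66 in vehicle GFP- cells. The GFP- arrays were alike in both stimuli, whereas the GFP+ arrays spread widely. The difference was -3.64 ± 0.63 in citrus and -6.62 ± 0.63 in vehicle (limma adjusted p = 0.00035 and 5.4e-07), and in vehicle GFP- cells it was at least 9.36-fold brighter than in GFP+ cells.

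Olfr1030 (MOR196), whose window holds the TAATTA printed above, gave the same difference after both stimuli. Its signals were 5.18, 5.36, 7.61 and 6.27 in citrus GFP+ cells, against 11.37, 11.89, 11.83 and 12.12 in citrus GFP- cells, and 4.08, 7.29, 6.57 and 6.16 in vehicle GFP+ cells, against 11.56, 12.47, 11.47 and 11.42 in vehicle GFP- cells. It was below background on every GFP+ array and above it on every GFP- array. The difference was -5.70 ± 0.56 in each stimulus (limma adjusted p = 6.2e-07 in citrus and 7.8e-07 in vehicle), with GFP- cells at least 7.16-fold brighter in citrus and at least 5.21-fold brighter in vehicle.

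Olfr1140 (MOR177), is the last member by number. It had 6.79, 6.71, 10.08 and 5.82 in citrus GFP+ cells, against 13.52, 12.57, 14.49 and 13.38 in citrus GFP- cells. In vehicle GFP+ cells it had 8.13, 7.74, 10.05 and 8.03, against 13.90, 13.80, 12.98 and 13.33 in vehicle GFP- cells. In each stimulus 1 GFP+ array was above background, the array numbered 3. The difference was -6.14 ± 0.70 in citrus and -5.01 ± 0.70 in vehicle (limma adjusted p = 3.3e-06 and 4e-05).

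Olfr1046 (MOR194) was below background on every GFP+ array and above it on every GFP- array. It had 6.23, 6.31, 6.96 and 6.0 in citrus GFP+ cells, against 11.26, 12.03, 11.33 and 11.73 in citrus GFP- cells, and 5.30, 6.17, 7.12 and 6.10 in vehicle GFP+ cells, against 10.59, 11.33, 11.28 and 10.92 in vehicle GFP- cells. Its difference of -5.21 ± 0.31 in citrus and -4.86 ± 0.31 in vehicle had adjusted p = 1.6e-09 and 4.2e-09 in limma. The lower members Olfr1002, Olfr1019, Olfr1039, Olfr1042, Olfr1110 and Olfr1118 differed by -2.66 to -4.51 in citrus and by -3.02 to -4.41 in vehicle. Of 16 arrays, Olfr1002 was above background on 4, Olfr1039 on 3 and Olfr1118 on fewer than 4, so their sizes are uncertain.

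**Figure D2:**
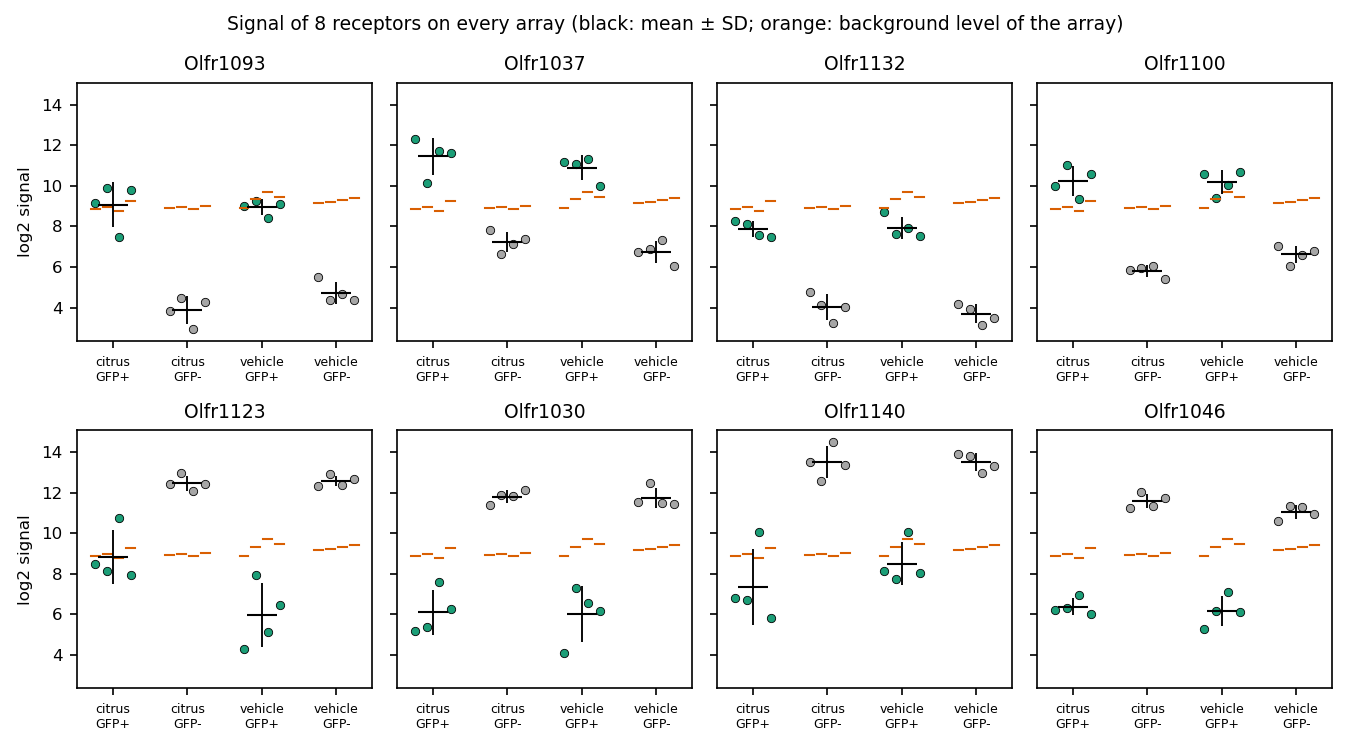
Log2 signal (y axis) of 4 higher and 4 lower receptors on every array (points) of the 4 groups (x axis), with the group mean ± SD in black and the background level of each array in orange. GFP+ points lie above GFP- points in every panel of the upper row and below them in every panel of the lower row.

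The arrays numbered 3 had the highest GFP+ signals for many lower members. The mean log2 signal of the 12 members that were lower after both stimuli was 8.14 on citrus GFP+ array 3, where the other citrus GFP+ arrays had 5.96 to 6.18, and 7.10 on vehicle GFP+ array 3, where the others had 5.55 to 6.34. Olfr1019 had 10.06 and 10.11 on these 2 arrays, against 5.67 to 7.21 on the other GFP+ arrays. Of the 12, 9 peaked on array 3 among the citrus GFP+ arrays and 5 among the vehicle GFP+ arrays. Olfr1043 (MOR185), which was not called and is named after its values were seen, had 10.71 and 11.20 there, against 3.36 to 6.95 on the other GFP+ arrays. Its difference was -3.90 in citrus and -2.58 in vehicle (limma adjusted p = 0.058 and 0.21). In citrus it was called with pools as blocks, with array weights, with each of 3 other centrings and without citrus pool 3 or vehicle pool 2 or 3, and in vehicle it was called under none of the alternatives, the one without vehicle pool 3 included. The myeloid and lymphoid marker mean of these arrays, 5.43 and 5.62, was within the range of the other GFP+ arrays, and the immature neuron marker mean, 11.38 and 11.36, was the highest of each group. Without pool 3, which leaves out its GFP+ and GFP- arrays together, all 12 were called in each stimulus. Pool 3 was singled out for its GFP+ signals of these same members, so the values without it are a description and no independent support. Olfr1019 then differed by -5.30 in citrus and -4.68 in vehicle, in place of -4.13 and -3.92. Olfr1042 differed by -5.57 and -5.22, in place of -4.51 and -4.41. Without pool 3 Olfr1140 was at -6.72 in citrus and -5.71 in vehicle, Olfr1123 at -4.42 and -6.41, Olfr1030 at -6.19 and -5.97, and Olfr1046 at -5.49 and -5.09.

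Some receptors on opposite sides of the gate lay next to each other along the chromosome. In the RefSeq order of the members, 10 of 103 neighbouring pairs joined a member called higher after both stimuli to one called lower after both. With 50 members of the first kind and 12 of the second among 104, a random order would also give such pairs. The count was not tested against such an order, so no result about the order is drawn. Olfr1030, at -5.70 in both stimuli, had Olfr1029 on one side, at 3.07 in citrus and 2.69 in vehicle, and Olfr1031 on the other, at 1.60 and 1.72. Olfr1046 followed Olfr1045, at 3.04 in citrus and 2.24 in vehicle, and Olfr1140 followed Olfr1138, at 2.44 and 2.10. Of 16 arrays, Olfr1029 was above background on 0, Olfr1031 on 1, Olfr1045 on 3 and Olfr1138 on fewer than 4. The sizes of these higher neighbours are therefore uncertain. The longest run of higher members held 7, from Olfr1099 to Olfr1106, and the longest run of lower members held 2. The correlation of the differences of neighbours was 0.16 in citrus and 0.14 in vehicle over 103 pairs, as a description. The interval also holds 9 receptors with other numbers, of which 6 had a probe set, 60 annotated pseudogenes and 3 other protein-coding genes.

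**Figure D3:**
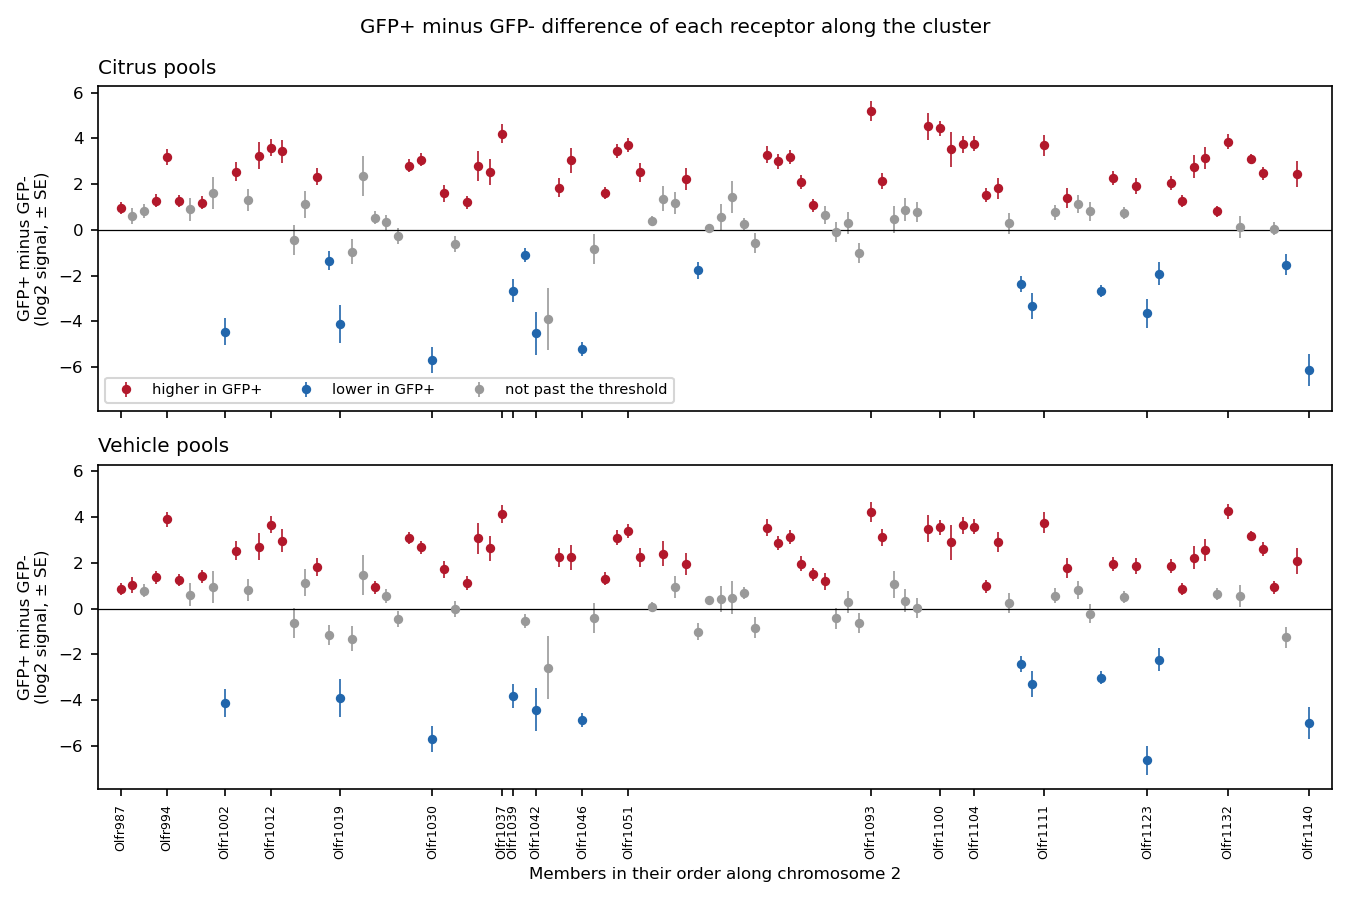
GFP+ minus GFP- difference (log2 signal, ± SE of the limma fit) of the 104 receptors in their order along chromosome 2 (x axis), after citrus (upper panel) and vehicle (lower panel). Red members were higher in GFP+ cells, blue members lower and grey members not past the threshold, and lower members such as Olfr1030, Olfr1046 and Olfr1140 sit next to a higher neighbour. The higher neighbours of these members were below background on most arrays, so their sizes are uncertain.

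Members of 1 family could lie on opposite sides of the gate too. Of 12 families with at least 4 members, 5 held both a member higher after both stimuli and a member lower after both. MOR264, the largest with 12 members, had 6 higher and 3 lower, and ran from -3.64 to 3.13 in citrus and from -6.62 to 2.55 in vehicle. MOR185 had 3 higher, Olfr1044, Olfr1045 and Olfr1057, and 2 lower, Olfr1039 and Olfr1042, of 8. Of 16 arrays, Olfr1044 was above background on 3, Olfr1045 on 3 and Olfr1057 on 2, so the sizes of these higher members are uncertain. MOR177 had Olfr1132 at 3.84 in citrus and 4.25 in vehicle and Olfr1140 at -6.14 and -5.01. Other families ran one way. All 3 members of MOR192, Olfr1080, Olfr1082 and Olfr1084, were higher after both stimuli, by 2.09 to 3.20 in citrus and 1.97 to 3.15 in vehicle, and the 2 whose windows were identical at 88.2% of positions, Olfr1080 and Olfr1082, differed by 3.00 and 3.20 in citrus and by 2.87 and 3.15 in vehicle. Olfr1084 was above background on 0 of 16 arrays, so the low end of the MOR192 ranges, which it sets, is uncertain. MOR179 and MOR203, with 6 members each, had 4 higher and 0 lower, and none of the 5 members of MOR188 was called after both. Neighbours of 1 family differed from each other by a median of 1.56 in citrus and 1.66 in vehicle (47 pairs), other neighbours by 1.41 and 1.66 (56 pairs). Near-identical receptors can share hybridisation, and probe sequences were not used here.

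**Figure D4:**
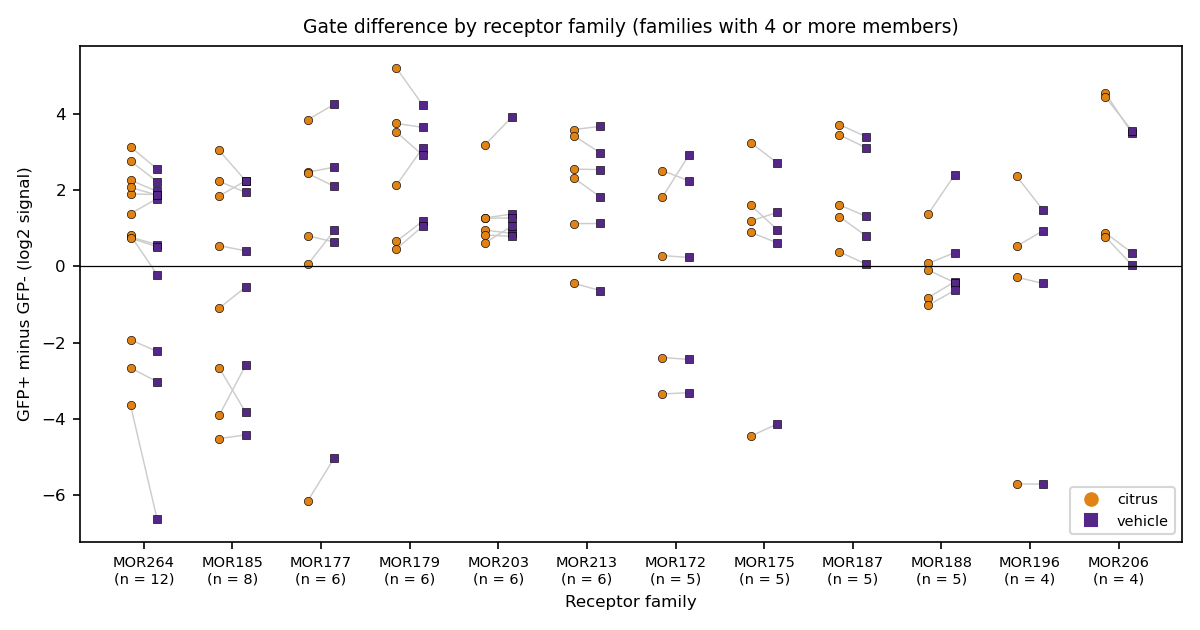
GFP+ minus GFP- difference (log2 signal, y axis) of each member of the 12 families with at least 4 members (x axis), with citrus as circles on the left and vehicle as squares on the right, joined for each receptor. MOR264, MOR185, MOR177, MOR172 and MOR175 hold members on both sides of 0 that were called after both stimuli.

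The members with the brightest probe sets over all arrays were Olfr987, Olfr988, Olfr1016, Olfr1080 and Olfr1140, and brightness depends on the probe as well as the mRNA. Olfr1016 (MOR213) had 13.64, 13.09, 13.50 and 12.37 in citrus GFP+ cells, against 11.24, 11.49, 10.41 and 10.16 in citrus GFP- cells. It had 13.47, 11.73, 13.06 and 12.96 in vehicle GFP+ cells, against 11.30, 10.28, 11.21 and 11.13 in vehicle GFP- cells. The gates did not overlap in either stimulus, and the difference was 2.32 ± 0.38 in citrus and 1.82 ± 0.38 in vehicle (limma adjusted p = 0.00019 and 0.0022).

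Olfr987 (MOR203), the first member by number, averaged 12.28 ± 0.35 in citrus GFP+ cells, against 11.33 ± 0.22 in citrus GFP- cells, and 11.86 ± 0.44 in vehicle GFP+ cells, against 10.997 ± 0.57 in vehicle GFP- cells (SD, n = 4 each). Its differences of 0.95 and 0.87 passed the threshold (limma adjusted p = 0.018 and 0.031) but not with the pool as a block in either stimulus, nor without vehicle pool 2, 3 or 4 (vehicle) or without citrus pool 2, 3 or 4 (citrus). Olfr988 passed in vehicle alone, at 1.05 with adjusted p = 0.042 in limma, where citrus gave 0.62 and 0.24, and the difference between the stimuli was -0.43 ± 0.49. That call was lost with the pool as a block, with only the groups compared, with centring on receptors or mature neuron markers, and without pool 2, 3 or 4 of either stimulus. Olfr1061, Olfr1023 and Olfr1040 had the dimmest probe sets, between 2.21 and 4.79 on every array. Just outside the range, Olfr986 lies on chromosome 9 and differed by -1.59 in citrus and -1.89 in vehicle, and Olfr1141 on chromosome 2 was at 2.52 to 3.88 on every array.

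No member passed the threshold between citrus and vehicle. In GFP+ cells 0 of 104 members were called between citrus and vehicle by limma, where 0.0204% of all probe sets were called, and 5 had an unadjusted p under 0.05, all of them higher, where 4.06% of all probe sets had one. In GFP- cells 0 were called, where 0.0153% of all were, and 2 had an unadjusted p under 0.05, where 5.88% of all had one. For the effect of citrus on GFP+ enrichment, the difference of the 2 gate differences, 0 were called, where 0% of all were, and 2 had an unadjusted p under 0.05, where 3.69% of all had one. These shares are near or below the background. The median member shifted by 0.08 in GFP+ cells, by 0.06 in GFP- cells and by 0.06 in enrichment. The 95% interval of the effect on enrichment reached a median of 1.20 log2 units to either side, before any correction for the number of probe sets. The effect was under 1 in size in 96 of 104 members.

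Olfr1123 had the smallest p for both citrus in GFP+ cells and enrichment. As given above, its 4 citrus GFP+ arrays, at 7.94 to 10.76, lay above its 4 vehicle GFP+ arrays, at 4.29 to 7.92, while the GFP- arrays overlapped. Of these GFP+ arrays 1 in citrus and 0 in vehicle were above background, so the sizes that follow are uncertain. The difference was 2.87 ± 0.63 in GFP+ cells (limma adjusted p = 0.56) and -0.11 ± 0.63 in GFP- cells, and the effect on enrichment was 2.98 ± 0.90 (limma adjusted p = 0.999). That effect ranks 1 by size among the 19572 probe sets and fails the correction. Without citrus array pair 3 it was 2.20 and the difference in GFP+ cells 2.23. In both stimuli Olfr1123 was lower in GFP+ than in GFP- cells, on 4 of 4 pools each.

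The other members with the smallest p failed the correction as well. In GFP+ cells, Olfr1098 was at 1.16 ± 0.43, Olfr1039 at 1.19 ± 0.51, Olfr1116 at 0.98 ± 0.41 and Olfr1128 at 0.63 ± 0.25 for citrus minus vehicle. In GFP- cells, Olfr1061 was at 0.44 ± 0.19, Olfr1121 at -0.55 ± 0.26, Olfr1093 at -0.86 ± 0.45, Olfr1099 at -1.19 ± 0.59 and Olfr1100 at -0.82 ± 0.34. For enrichment, Olfr1116 was at 1.02 ± 0.59, Olfr1100 at 0.88 ± 0.48, Olfr1136 at -0.89 ± 0.40 and Olfr1094 at -0.98 ± 0.50. The limma adjusted p was at least 0.56 for all members in GFP+ cells, 0.82 in GFP- cells and 0.999 for enrichment.

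**Figure D5:**
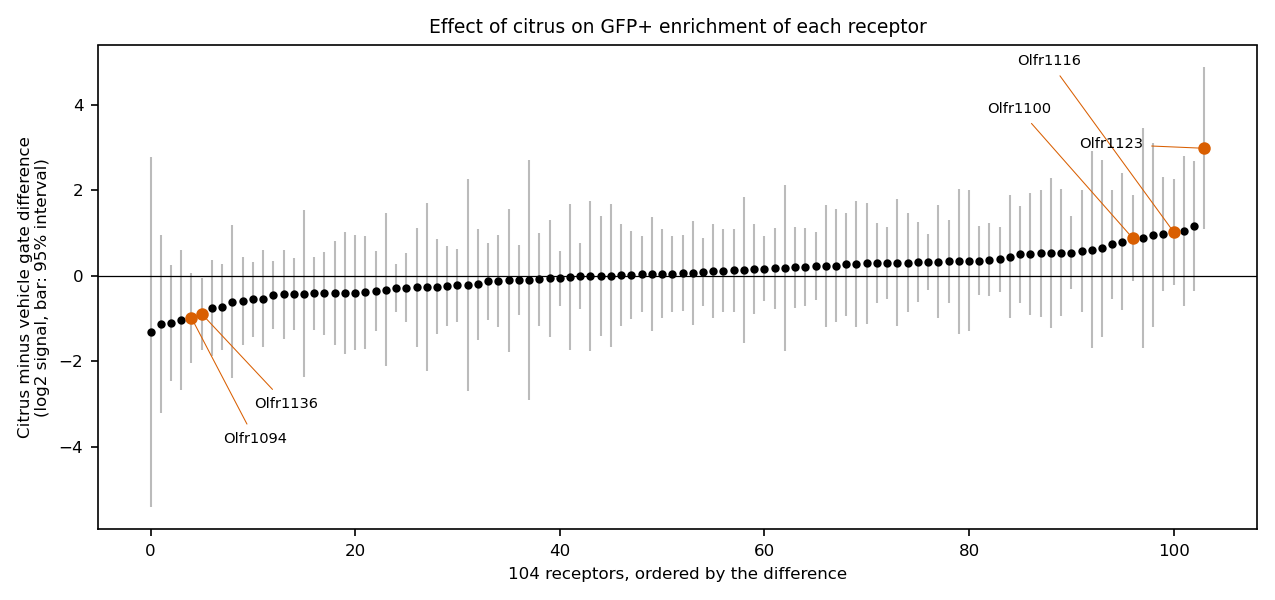
Citrus minus vehicle gate difference (log2 signal, y axis, with 95% intervals) of the 104 receptors in the order of its size (x axis), with the 5 smallest p marked. Olfr1123 is at 2.98 and Olfr1136, at -0.89, is the only other member whose interval leaves out 0.

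Genes that act with odorant receptors were counted in the same fit. Of 25 measured genes of receptor choice and chromatin, 0 were higher and 2 lower in GFP+ cells in citrus, and 0 and 1 in vehicle. Over all probe sets, 10.8% were lower in citrus and 9.97% in vehicle. Lbr, whose nuclear envelope protein is lost as sensory neurons mature, was lower by -1.90 in citrus and -1.63 in vehicle. The part of other cell types, whose markers also differed between the gates, in the Lbr difference was not tested. Cbx5, called in citrus alone, was at -0.65 there, with all group means below background. Of 23 genes of receptor trafficking and signalling, 6 were higher and 1 lower in citrus, and 5 and 1 in vehicle, where 7.44% of all probe sets were higher in citrus and 9.05% in vehicle. They include Pde1c, a phosphodiesterase of the cilia, at 0.95 in each stimulus, Rtp2, a receptor transporter, at 0.55 and 0.75, and Grk3, a receptor kinase whose group means were all below background, at -0.88 and -1.20. Of 11 markers of dorsoventral zones, 1 was higher and 0 lower in citrus, and 0 and 2 in vehicle. The same shares over all probe sets stand beside these counts, and no result about the list is drawn. No gene of these 3 lists was called for citrus against vehicle in either gate or for enrichment.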

How the data were processed

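Sorted GFP+ and GFP- cells of pooled mice were hybridised to Clariom S mouse arrays, 1 per sample, each with 50 to 100 ng of RNA. The values the authors deposited are log2 gene-level signals. Per the submitters' processing notes the software was Affymetrix Expression Console, and 1 label names a signal-space RMA. For the software version and the build, the sources used here give nothing. RMA normalizes arrays together, so a gate-wide shift in RNA content would be removed.

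The 19572 non-control probe sets with 1 symbol entered 1 limma fit (version 3.58.1, R 4.3.3) over all 16 arrays with a mean for each group, followed by eBayes and Benjamini-Hochberg adjustment over all of them at 0.05. Values are ± SE of that fit unless SD is named. The number of arrays limits the precision. The fit took every signal as deposited, also those below the 95th percentile of 5222 negative-control probes. Fitted differences that rest on such signals are uncertain in size. In a fold written "at least", signals below that level were treated as bounds. Such a fold sets the mean of the brighter group against that level and holds for that percentile alone. Windows were aligned with biopython 1.88.

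Named members were the 10 largest positive and negative differences per stimulus, the 5 smallest p per citrus comparison, the 5 highest and 3 lowest mean levels, and the ends of the range with their outer neighbours. The members and lists were chosen with earlier results of these data known. Same-numbered GFP+ and GFP- arrays of a stimulus are taken as 1 pool from the number of mice. Their deviations from the group means correlated at 0.075 to 0.275, and all 8 were closest to their own number. No batch could be tested, since the labels give all arrays 1 code. The alternatives were 3 other centrings, a filter on dim probe sets, all non-control probe sets, array weights, another prior, only the groups compared, the pool block and leaving out each pool.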

Additional observations from a re-analysis of the deposited data

Results flagged for a closer look

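Among the 35 named members, 6 of 140 groups of 4 arrays held 1 array far from the other 3, by a gap test that marks about 1 group in 20 by chance. Olfr1030 had 12.4661 in vehicle GFP- pool 2, where the other pools had 11.4 to 11.6. Olfr1140 had 10.0482 in vehicle GFP+ pool 3, where the others had 7.74 to 8.13. Olfr994 had 8.54964 in vehicle GFP- pool 1, where the others had 6.69 to 6.91, all below background. Olfr1116 had 8.92539 in citrus GFP- pool 2, where the others had 7.96 to 8.05, all below background. Olfr1136 had 5.74545 in vehicle GFP+ pool 3, where the others had 4.42 to 4.61, all below background. Olfr1016 had 10.2818 in vehicle GFP- pool 2, where the others had 11.1 to 11.3.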

How the results depend on the processing

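The 55 results on members in the comparison for which the size of their difference or their p had named them kept their direction and their side of the threshold under every alternative that gave them a value, which was 40 of them with the filter on dim probe sets and 50 with only the groups compared. With that filter, which keeps 44 members, 35 members were called in citrus (25 higher, 10 lower) and 35 in vehicle (26 and 9), in place of 67 in each. The count of members above background on at least 1 array was 59, and became 3 with the 99th percentile of the negative controls and 98 with their median, so detection depends on that level. Leaving out each pool in turn gave 60 to 73 calls in citrus, 58 to 68 in vehicle and 0 to 0 in the citrus comparisons. With the pool as a replicate block, 75 members were called in citrus (58 higher, 17 lower) and 69 in vehicle (55 and 14). The block lost Olfr987 in both stimuli and Olfr988 in vehicle, gained 9 members in citrus and 4 in vehicle, and changed no other call. Olfr987, Olfr988, Olfr1128 and Olfr1136, named for their level or for their p in another comparison, lost a gate call under several alternatives. Centring on mature neuron markers gave 45 higher and 19 lower in citrus and 47 and 17 in vehicle, and centring on the median of all probe sets 70 and 16 in citrus and 64 and 12 in vehicle. For Olfr1123, the adjusted p of citrus against vehicle in GFP+ cells lay between 0.0956 (without vehicle pool 2) and 0.9995.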

Other observations

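Receptors with other numbers lie inside the same interval of chromosome 2. Olfr52 was higher in GFP+ cells by 4.26 in citrus and 3.64 in vehicle (limma adjusted p = 2.1e-08 and 1.8e-07), and Olfr141 by 1.5 and 1.97. Olfr153, Olfr154 and Olfr228 were lower, by -1.35, -2.62 and -1.96 in citrus and by -1.26, -1.33 and -1.79 in vehicle. Olfr259, at 1.32 and 1.20, did not pass the threshold in either stimulus.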
